A study of Mus musculus with 12 samples.

Results

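The genes described here are the cytochrome P450 genes of the Cyp1a, Cyp1b and Cyp3a families and of all Cyp2 families measured except Cyp2c, chosen by gene symbol. They are 36 of the 16821 genes measured. Liver RNA of 12 male C57BL/6J mice, bought at 8 weeks of age, was sequenced, each mouse giving its own library. The 6 Exe mice were trained by moderate treadmill running over 6 weeks, on 5 days per week and for 60 min per day, and the 6 Con mice stayed sedentary in the same room. All livers were flushed with saline and collected within a day of the last run, and the comparison asks how chronic exercise altered the transcriptome of the liver. The values are FPKM, that is, fragment numbers divided by transcript length and by the fragments mapped in the mouse, a level per length, so that genes can be compared with each other.

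These enzymes sit in the membrane of the endoplasmic reticulum, receive electrons from the reductase encoded by Por and oxidize drugs, toxins, steroids and fatty acids. In the liver they are concentrated in hepatocytes, most of them in those around the central vein. Cyp1 genes are induced through the aryl hydrocarbon receptor (AHR), Cyp2b10 through the constitutive androstane receptor (CAR, encoded by Nr1i3) and Cyp3a11 through the pregnane X receptor (PXR, encoded by Nr1i2). Transcripts of many hepatic P450 genes are known to be low during an acute-phase response, in which hepatocytes secrete serum amyloid A and other plasma proteins.

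The promoters of 5 members on which the results turn are shown, as the 250 bases before the start site, 5′ to 3′, on the strand of the gene. Sequences and positions are those of RefSeq on GRCm38.p6. Cyp2a4 (chr7:26306942-26307191, plus strand) and Cyp2a5 (chr7:26835089-26835338, plus strand), which encode steroid and coumarin hydroxylases, are shown because their promoters are nearly the same while their levels are far apart. Capitals mark the bases that differ between them.
Cyp2a4: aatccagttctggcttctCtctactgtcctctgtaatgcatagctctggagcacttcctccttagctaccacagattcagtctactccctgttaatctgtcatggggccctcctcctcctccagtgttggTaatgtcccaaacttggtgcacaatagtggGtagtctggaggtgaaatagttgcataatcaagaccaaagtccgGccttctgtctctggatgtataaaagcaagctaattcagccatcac
Cyp2a5: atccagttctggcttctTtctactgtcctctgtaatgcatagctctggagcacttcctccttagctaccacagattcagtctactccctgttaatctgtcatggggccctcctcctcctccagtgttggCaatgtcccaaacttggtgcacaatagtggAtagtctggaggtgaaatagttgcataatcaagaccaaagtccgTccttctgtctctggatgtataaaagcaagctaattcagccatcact

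Cyp1a1 (chr9:57697363-57697612, plus strand) and Cyp1a2 (chr9:57683656-57683905, minus strand) are shown as neighbours with a shared regulator, and Cyp3a11 (chr5:145879855-145880104, minus strand) as the member with the largest coefficient, over the 12 mice, on the acute-phase score described below. Capitals mark GCGTG, the core letters bound by AHR with its partner ARNT, AGGTCA, letters that nuclear receptors bind, both searched on both strands, and TATAAA, the TATA box letters, searched on the strand of the gene.
Cyp1a1: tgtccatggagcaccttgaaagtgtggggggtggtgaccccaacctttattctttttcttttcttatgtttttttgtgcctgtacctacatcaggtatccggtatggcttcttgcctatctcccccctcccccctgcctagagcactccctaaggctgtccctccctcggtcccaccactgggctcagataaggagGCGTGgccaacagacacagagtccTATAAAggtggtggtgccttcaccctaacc
Cyp1a2: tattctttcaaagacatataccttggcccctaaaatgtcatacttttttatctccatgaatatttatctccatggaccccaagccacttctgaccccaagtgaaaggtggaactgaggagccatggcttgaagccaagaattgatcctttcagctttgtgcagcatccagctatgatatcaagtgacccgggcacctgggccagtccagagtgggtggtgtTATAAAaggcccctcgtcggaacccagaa
Cyp3a11: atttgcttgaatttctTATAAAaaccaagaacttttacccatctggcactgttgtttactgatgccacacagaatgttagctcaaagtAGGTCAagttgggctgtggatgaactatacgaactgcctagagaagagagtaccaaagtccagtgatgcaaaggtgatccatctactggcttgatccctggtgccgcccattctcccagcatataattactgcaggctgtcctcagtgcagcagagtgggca

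The window of Cyp1a1 held GCGTG and that of Cyp1a2 did not, and whether AHR binds these letters there was not tested. A promoter was found for 31 of the 36 members, in 32 windows, and not for Cyp2d12, Cyp2d22, Cyp2d34, Cyp2g1 and Cyp2u1. TATAAA was present in 12 of these windows (37.5%), against 7.59% of all 32851 promoters of the same length. AGGTCA was present in 9 windows (28.1%, against 14%), and GCGTG in 4 (12.5%, against 28.2%), those of Cyp1a1, Cyp1b1, Cyp2b10 and Cyp2j9. These matches are descriptions of the letters only, wherever they lie in the window. That of TATAAA in Cyp3a11 lies near the end farthest from the start site. Near-identical promoters, such as those of Cyp2a4 and Cyp2a5, were each counted.

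Hepatocyte genes dominated the libraries. The 6 hepatocyte markers (albumin and others) summed to between 52000 and 74900 FPKM per mouse, against 25.4 to 76.7 FPKM for the 5 bile duct markers. The relative depth of the mice, estimated from genes whose FPKM stepped in whole multiples and set against the geometric mean of the 12 mice, lay between 0.975 and 1.01. The sum of 5 pancreatic acinar markers was 15.5 FPKM in Exe 5 and 0.6 to 2.74 FPKM in the others. In bulk tissue, fewer cells of a type and less RNA per cell cannot be told apart.

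Levels of the 36 genes differed widely. The most abundant was Cyp2e1, which oxidizes ethanol and acetaminophen, with 33.9% of the summed FPKM of the 36 genes. Cyp3a11, the main PXR-inducible enzyme of mouse liver, held 16.4%, Cyp2f2, known for the oxidation of naphthalene, 9.48%, and Cyp2d9, a male-biased testosterone hydroxylase, 9.27%. These 4 genes had mean levels above 1000 FPKM, and 12 genes had at least 100 FPKM. The sum of the 36 was 12021 ± 1413 FPKM for the Con and 12041 ± 1595 FPKM for the Exe mice (SD, n = 6 each), and made up 1.23% to 1.94% of all FPKM of a mouse. By family, the Cyp2e, Cyp2f and Cyp2g genes held 43.3% of the sum, the Cyp2d genes 21.7%, the Cyp3a genes 20.1%, the Cyp2a genes 7.46%, the Cyp1 genes 5.52% and the Cyp2j genes 1.78%.

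**Figure D1:**
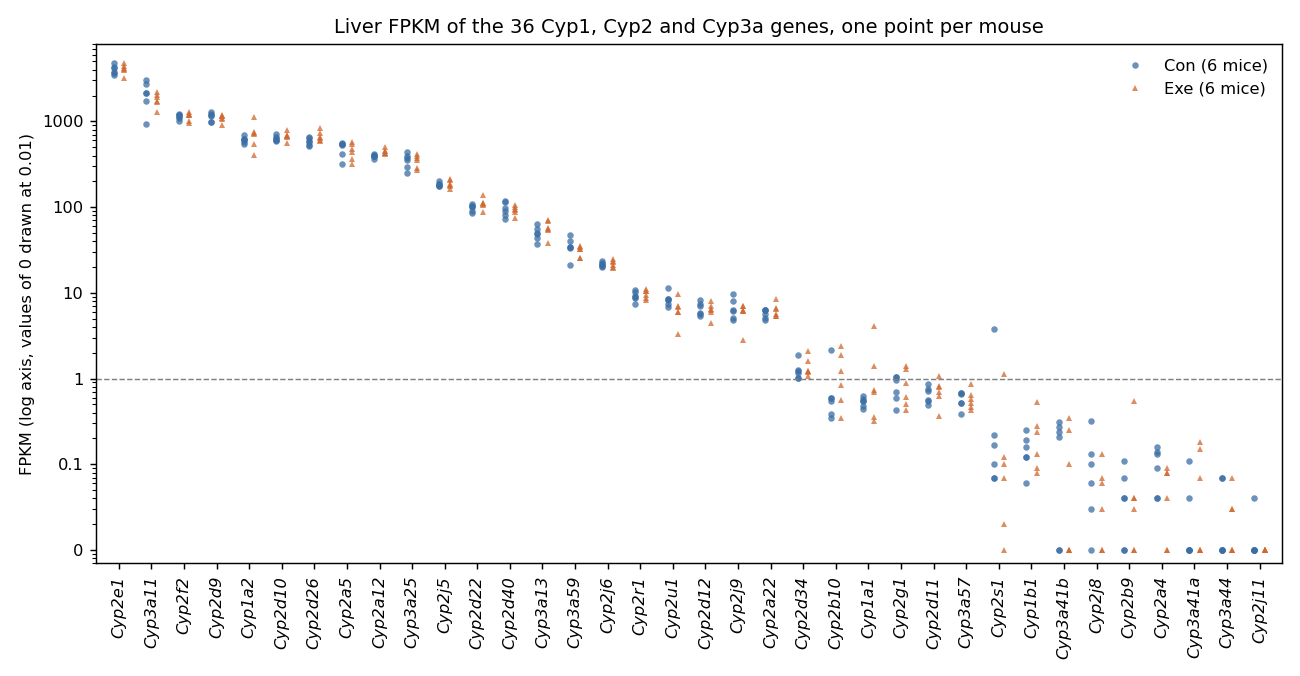
FPKM of the 36 genes on a log axis, ordered by mean level, with a circle for each Con mouse and a triangle for each Exe mouse and values of 0 drawn at the bottom. The Con and Exe points lie on top of each other for most genes, and the genes to the right of Cyp2d34 lie mostly below 1 FPKM (dashed line).

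Of the 36 genes, 22 reached 1 FPKM in at least 6 of the 12 mice and were compared in a fit over all genes, and 14 did not. Among those 14, 9 stayed below 1 FPKM in all mice. They included members with known female bias in mouse liver, namely Cyp2a4 (highest 0.16 FPKM), Cyp2b9 (0.54 FPKM), Cyp3a41a (0.18 FPKM), Cyp3a41b (0.35 FPKM) and Cyp3a44 (0.07 FPKM), as well as Cyp1b1 (0.53 FPKM), Cyp2j8 (0.32 FPKM), Cyp2j11 (0.04 FPKM) and Cyp3a57 (0.86 FPKM). Outside these families, the female-biased A1bg, Sult3a1 and Cux2 were also at or below 0.21 FPKM in every mouse and Acot3 lay between 0.10 and 2.16 FPKM, while the male-biased Mup20 lay between 7446 and 13794 FPKM. The other 5, Cyp1a1, Cyp2b10, Cyp2d11, Cyp2g1 and Cyp2s1, reached 1 FPKM in some mice only.

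Cyp2a4 did not exceed 0.16 FPKM, while Cyp2a5 lay between 315.78 and 580.61 FPKM. Their promoter windows were identical at 245 of 249 aligned bases (98.4%). Of their transcripts, 4.22% of the 150-base windows of the Cyp2a4 transcript and 5.79% of those of Cyp2a5 also occur in another gene. Cyp3a41a and Cyp3a41b, in contrast, share 82.9% and 82.7% of their windows. In each of the 12 mice exactly 1 of this pair was above 0 and the other at 0, so their values were read as a sum, which did not exceed 0.35 FPKM. Of the 36 genes, 24 shared 0% of their windows with any other gene, and no gene but this pair shared over 10%.

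After 6 weeks of running, 2 members, Cyp2a12 and Cyp2u1, differed at an unadjusted p of 0.05 and 0 after adjustment. With limma and Benjamini-Hochberg adjustment over 10241 genes, 0 members and 0 genes in all (0%) were called at 0.05, the lowest adjusted p among the members being 0.789. The study, which used DESeq, reported genes past its thresholds, the member Cyp1a1 among them. The 2 of 22 members called before adjustment stand against 6.21% of all genes (636). Cyp2a12 was higher in Exe, and Cyp2u1 was lower. The background in the same direction was 4.27% of genes higher and 1.94% lower, and the share of the called genes that were higher fell from 68.7% to 56.8% after quantile normalization. In all, 14 members (63.6%) had a higher and 8 a lower mean log2 level in Exe, with a median log2 fold change of 0.03, beside 57.5% and 0.02 for all genes. The absolute log2 fold change was below 0.25 for 21 of the 22 members.

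**Figure D2:**
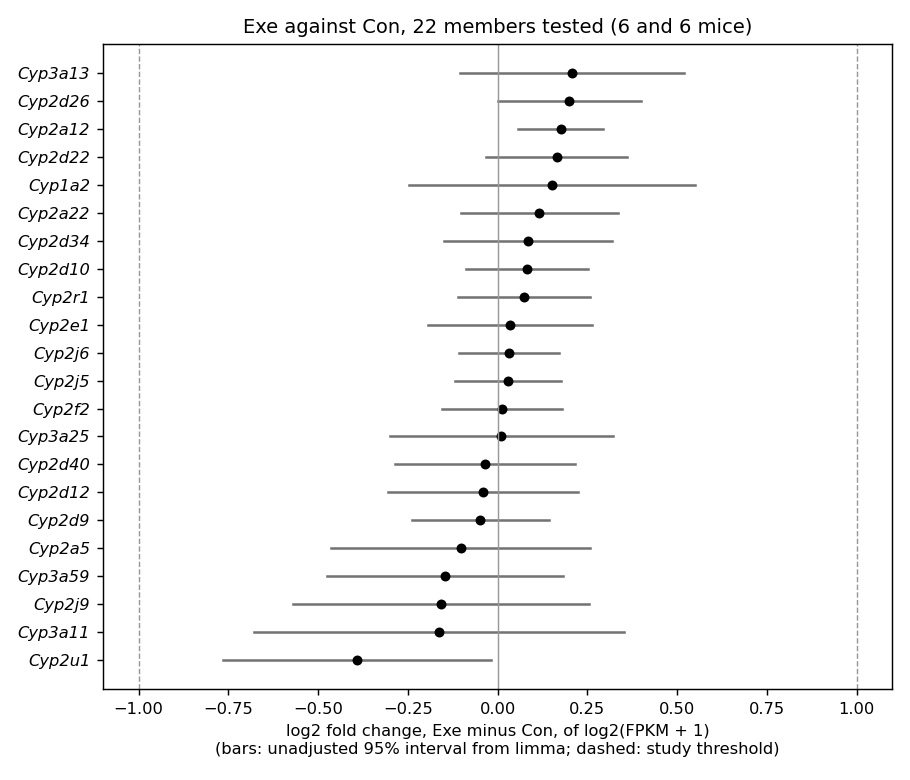
Log2 fold change of Exe against Con for the 22 members tested (points, 6 mice per group) with the unadjusted 95% interval from limma (bars) on the log2(FPKM + 1) scale. The dashed lines are the study's threshold of 1 in either direction, and no interval reaches them. The intervals of Cyp2a12 and Cyp2u1 do not include 0.

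Cyp2a12 encodes a hydroxylase of testosterone and, in mice, of secondary bile acids. Its level was 368.53, 397 and 414.26 FPKM (lowest, median and highest) in the Con mice and 421.23, 442 and 499.02 FPKM in the Exe mice. All 6 Exe mice lay above all 6 Con mice, a separation found for 0.234% of the genes tested in that direction and for 0.0195% in the other, which 0 members showed. The means were 395 ± 15.4 and 447 ± 29.2 FPKM (SD, n = 6 each), and the limma log2 fold change was 0.18 (SE 0.055, 95% interval 0.058 to 0.29, unadjusted p = 0.0067, adjusted p = 0.789). The exact two-sided permutation p was 0.00216, the smallest that groups of 6 allow, and 36 such tests were made, for each member. The log2 fold change ranged from 0.14 to 0.19 in the 12 fits that each left out a mouse, and the unadjusted limma p stayed below 0.05. After quantile normalization it was 0.11, over 1.5 times smaller, with an unadjusted limma p of 0.029. Cyp2a22, a neighbouring paralog that shares 3.46% of its windows with Cyp2a12, was far lower, at 5.74 ± 0.712 FPKM in Con and 6.34 ± 1.18 FPKM in Exe. Its log2 fold change was 0.12 (SE 0.1), and 0.038 without Exe 2.

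Cyp2u1, a fatty acid hydroxylase, was at 6.85, 8.36 and 11.36 FPKM (lowest, median and highest) in Con and 3.27, 6.35 and 9.58 FPKM in Exe. The groups overlapped, and the lowest value was that of Exe 6. The log2 fold change was -0.39 (SE 0.17), with an unadjusted limma p of 0.041, an adjusted p of 0.799 and an exact permutation p of 0.0606. It was -0.24 without Exe 6, and the unadjusted p stayed below 0.05 in 5 of the 12 fits that left out a mouse. Cyp2d26, a member of the Cyp2d family, was just outside the unadjusted threshold, with 517.27, 588.1 and 666.41 FPKM in Con and 591.78, 654.7 and 838.28 FPKM in Exe (lowest, median and highest). The groups overlapped, and the log2 fold change was 0.20 (SE 0.093, unadjusted p = 0.0502, exact permutation p = 0.0606).

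The most abundant members did not pass the test. For Cyp2e1 the means were 4022 ± 485 FPKM in Con and 4124 ± 535 FPKM in Exe (SD, n = 6), a log2 fold change of 0.03 with a 95% interval of -0.19 to 0.26, and of 0.17 (SE 0.17) after quantile normalization. For Cyp2f2 they were 1134 ± 66.7 and 1147 ± 123 FPKM, with an interval of -0.16 to 0.18. Cyp2d9 had means of 1135 ± 134 and 1095 ± 96.3 FPKM and an interval of -0.24 to 0.14. For Cyp3a11 the mice varied more, with 936.91, 2148 and 3081.2 FPKM in Con and 1278.51, 1832 and 2219.9 FPKM in Exe (lowest, median and highest). The Con mice thus held both its lowest and its highest level. Its log2 fold change of -0.16 had an interval of -0.68 to 0.35, and was -0.38 without Con 1, -0.04 without Con 4 and -0.08 after quantile normalization.

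In the remaining Cyp2d genes, the drug-oxidizing family whose member Cyp2d22 is regarded as close to the human debrisoquine hydroxylase, no member passed the unadjusted threshold. Cyp2d22 was at 98.1 ± 8.72 FPKM in Con and 111 ± 15.6 FPKM in Exe. Cyp2d10 was at 634 ± 46.4 and 674 ± 74.5 FPKM. Cyp2d40 had 95.5 ± 17.5 and 92.5 ± 10.8 FPKM, Cyp2d12 6.61 ± 1.18 and 6.41 ± 1.21 FPKM, and Cyp2d34 1.26 ± 0.324 and 1.4 ± 0.372 FPKM. The coumarin hydroxylase gene Cyp2a5 was at 485 ± 95.3 FPKM in Con and 454 ± 104 FPKM in Exe. The Cyp2j genes encode epoxygenases of arachidonic acid. Cyp2j5 was at 184 ± 9.16 and 188 ± 19.5 FPKM, Cyp2j6 at 21.5 ± 1.17 and 22.1 ± 2.11 FPKM, and Cyp2j9 at 6.67 ± 1.87 and 5.92 ± 1.6 FPKM. Among the 12 mice, the lowest Cyp2j9 level was that of Exe 1 (2.78 FPKM), and leaving it out moved the log2 fold change from -0.16 to 0.0088. Cyp2r1, which hydroxylates vitamin D, was at 9.21 ± 1.12 and 9.74 ± 1.08 FPKM. Of the Cyp3a genes, Cyp3a25 was at 351 ± 70.2 and 352 ± 59.3 FPKM, Cyp3a13 at 49.4 ± 9.01 and 57.5 ± 11.5 FPKM, and Cyp3a59 at 34.9 ± 8.55 and 30.9 ± 4.19 FPKM. The means and SD in this paragraph are over 6 mice each, and these genes had unadjusted limma p-values of 0.094 or above.

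The AHR targets Cyp1a1 and Cyp1a2 were highest in the same Exe mouse, Exe 2. This peak is not particular to them. Exe 2 was the highest mouse for 9 of the 22 members tested, among them Cyp1a2, Cyp2a5 and Cyp2e1, a count not made for all genes. Cyp1a1, normally near silent in liver, ranged from 0.44 to 0.62 FPKM in Con, and measured 0.74, 4.12, 0.32, 0.69, 0.36 and 1.4 FPKM in Exe 1 to Exe 6. The Exe mice thus lay on both sides of the Con mice, 4 above all of them and 2 below (exact permutation p = 0.258). Cyp1a1 was below the filter and so not in the limma fit, while the study named it among its differentially expressed genes. Cyp1a2, the abundant hepatic member that oxidizes caffeine, was at 548.9, 613.9 and 697.49 FPKM in Con and 404.41, 726 and 1133.57 FPKM in Exe (lowest, median and highest), with the highest level in Exe 2 and the lowest in Exe 5. Its coefficient of variation was 8.32% in Con and 34.6% in Exe. The difference in spread was not tested. The limma log2 fold change of 0.15 (SE 0.19) became 0.004 without Exe 2 and 0.30 without Exe 5. Cyp1b1, an AHR target found mainly outside the liver, was also highest in Exe 2 (0.53 FPKM, against 0.06 to 0.28 FPKM elsewhere).

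**Figure D3:**
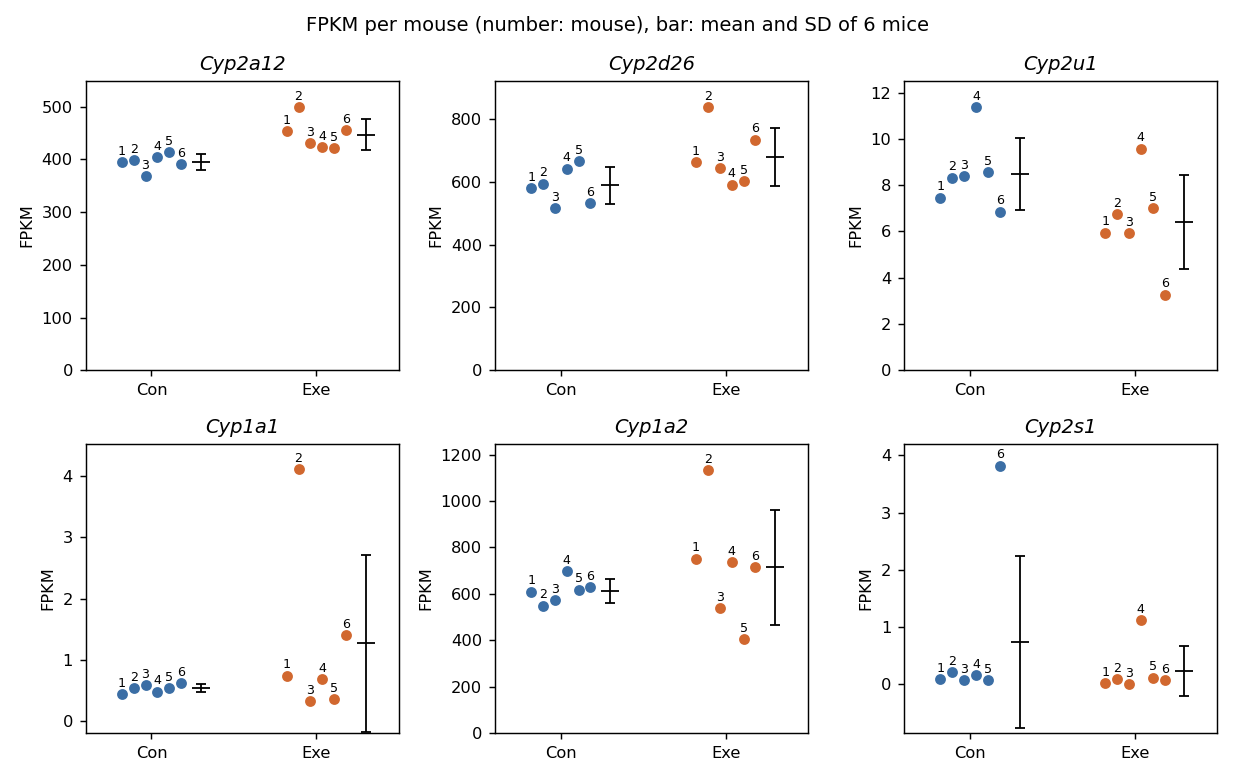
FPKM of Cyp2a12, Cyp2d26, Cyp2u1, Cyp1a1, Cyp1a2 and Cyp2s1 in each of the 6 Con mice (blue) and 6 Exe mice (orange), numbered by mouse, with the mean and SD of the group as a bar. For Cyp2a12 all Exe points lie above all Con points, Exe 2 is highest for Cyp1a1 (4.12 FPKM) and Cyp1a2 (1133.57 FPKM), and Con 6 and Exe 4 stand apart for Cyp2s1.

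Over the 12 mice, the log2 levels of Cyp1a1 and Cyp1a2 correlated with Pearson's r = 0.833 (permutation p = 0.00052, adjusted over 5 pairs 0.0026) and Spearman's rho = 0.844 (permutation p = 0.00103, adjusted 0.00515). Without Exe 2 and Exe 6, the mice farthest from the median of Cyp1a1, r was 0.736. Within Con the relation was not detected (r = -0.306, exact permutation p = 0.564), while within Exe r was 0.861 (exact permutation p = 0.0319). The difference between the groups was not tested. Without Exe 2 alone, r was 0.616 and did not pass after adjustment. Cyp1a2 and Cyp2e1, both known as genes of the central zone, gave r = 0.732 (permutation p = 0.0058, adjusted 0.0145) and rho = 0.664 (permutation p = 0.0216, adjusted 0.054), but r = 0.355 without Exe 2 and Exe 5, 0.214 within Con (exact permutation p = 0.685) and 0.956 within Exe (exact permutation p = 0.00417). The pooled relation thus rests on Exe 2 and Exe 5. The pairs Cyp2e1 with Cyp2f2 (r = 0.488, rho = 0.441), Cyp2a4 with Cyp2a5 (r = 0.267, rho = 0.219) and Cyp2b10 with Cyp3a11 (r = 0.117, rho = 0.098) had adjusted permutation p-values from 0.181 upwards.

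Cyp2b10, the classical target of CAR, measured 2.14 FPKM in Con 6 and 0.35 to 0.6 FPKM in the other 5 Con mice. In Exe 1 to Exe 6 it was 0.56, 1.23, 1.89, 0.83, 0.35 and 2.4 FPKM, so the groups overlapped and Exe 6 alone lay above all Con mice (exact permutation p = 0.281). Cyp2g1, known from the olfactory mucosa, was at 0.43 to 1.39 FPKM and Cyp2d11 at 0.37 to 1.06 FPKM in the 12 mice, with no separation of the groups. Cyp2s1, a P450 of epithelia, reached 3.82 FPKM in Con 6 and 1.13 FPKM in Exe 4. The other 10 mice were at 0.22 FPKM or less. Of the 5 bile duct markers, only Krt19 also set both mice apart. Krt7 and Epcam set Con 6 apart, and Krt7 in Exe 4 was just above the other mice. Krt19 was 18.07 FPKM in Con 6, 5.5 FPKM in Exe 4 and 0.36 to 1.61 FPKM elsewhere, and Krt7 was 3.05, 0.88 and 0.13 to 0.81 FPKM in the same order. Epcam was 3.29 FPKM in Con 6 and 1.29 FPKM in Exe 4, against 0.51 to 1.34 FPKM elsewhere. Sox9 (1.77 and 1.38 FPKM) and Spp1 (38.94 and 31.21 FPKM) lay within the other mice. The summed level of the 5 bile duct markers did not set these mice apart (65.1 and 40.3 FPKM, within 25.4 to 76.7 FPKM over all mice). Spp1 made up most of that sum in every mouse, so the sum could not show the levels of Krt19, Krt7 and Epcam. The part of bile duct cells in the Cyp2s1 values was not tested.

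Regulators and partners of these enzymes were read from lists of known genes in the same fit. Of the receptors and their partners, 0 of 7 tested passed the unadjusted p of 0.05, beside 6.21% of all genes. Nr1i3, which encodes CAR, was at 80.2 ± 11.2 FPKM in Con and 104 ± 30.1 FPKM in Exe (log2 fold change 0.33, SE 0.17), with 147.77 FPKM in Exe 2. Nr1i2, which encodes PXR, was at 27.7 ± 4.62 and 27.5 ± 3.48 FPKM, and Ahr at 7.05 ± 1.3 and 6.51 ± 1.59 FPKM (SD, n = 6 each). Of the electron donors and heme enzymes, 0 of 8 passed. Por was at 201.43, 210.22 and 214.9 FPKM in Exe 1, Exe 2 and Exe 6, and between 81.38 and 135.9 FPKM in the 9 other mice, with a log2 fold change of 0.43 (SE 0.23, limma adjusted p = 0.849). Beside the same 6.21%, the count was 0 of 4 for AHR targets outside the P450 genes, 0 of 6 for CAR and PXR targets, 0 of 6 for male-biased genes, 0 of 6 for periportal genes and 1 of 7 for pericentral genes, namely Oat, with a log2 fold change of -0.27 (SE 0.11).

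Across mice, 9 of the 22 members tested were lower with a higher acute-phase level at an unadjusted p of 0.05, and 0 after adjustment. Each mouse was given a score, the mean log2(FPKM + 1) of 8 acute-phase genes (Saa1, Saa2, Saa3, Orm1, Orm2, Orm3, Hp and Lcn2). It was 8.41 ± 1.83 in Con and 7.72 ± 1.48 in Exe (SD, n = 6 each), highest in Con 1 (10.46) and Exe 5 (10.2) and lowest in Con 5 (6.09), Exe 4 (6.11) and Con 4 (6.18). Both groups thus held mice near each end of the range. In a fit with group and score, 19 of the 22 members (86.4%) had a negative coefficient on the score, beside 58.9% of all genes, and the median coefficient was -0.092 log2 per SD of the score, beside -0.014 for all genes. At an unadjusted p of 0.05, 10 of the 22 members were called, against 16.4% of all genes. Of these, 9 were lower with the score (background 9.89%) and 1 was higher (6.51%). After adjustment over all genes, limma called 0 members and 76 genes (0.742%), 8 of which make up the score.

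**Figure D4:**
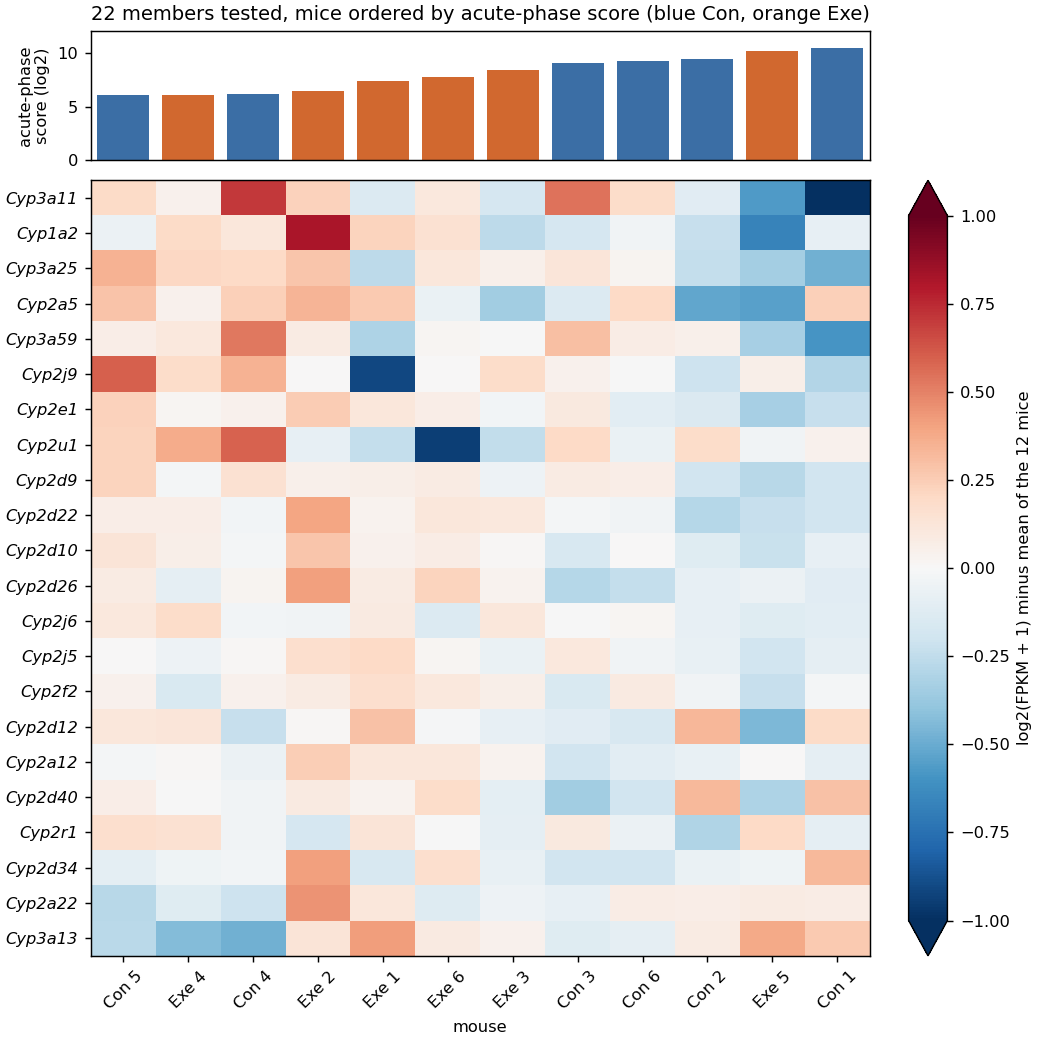
Log2(FPKM + 1) of the 22 members tested minus the mean of the 12 mice (colour), with mice ordered by acute-phase score (bars above, blue Con and orange Exe) and genes by their coefficient on the score. The upper rows are mostly red on the left and blue under Exe 5 and Con 1 on the right, and Cyp3a13 at the bottom runs the other way.

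The 9 members that were lower with the score at the unadjusted p came from the Cyp3a, Cyp2d, Cyp2e, Cyp1a and Cyp2a families. Cyp3a25 had the smallest limma adjusted p of them (0.0611), with a coefficient of -0.22 log2 per SD (SE 0.049), and it passed the adjusted threshold when either Con 3 or Exe 1 was left out. Its level was 439.66 FPKM in Con 5, 399.61 FPKM in Exe 4 and 396.66 FPKM in Con 4, the mice with the lowest scores, and 247.42 FPKM in Con 1 and 272.87 FPKM in Exe 5, those with the highest. All 3 mice with the lowest scores thus lay above both with the highest. Cyp3a11 had the largest coefficient over the 12 mice, -0.32 (SE 0.095, limma adjusted p = 0.124), but without Con 1 it was -0.19, behind Cyp1a2 and Cyp2a5 (-0.25). It was at 936.91 FPKM in Con 1 and 1278.51 FPKM in Exe 5, its lowest levels in each group. For Cyp2e1 the coefficient was -0.15 (SE 0.037, limma adjusted p = 0.0919) and for Cyp2d9 -0.12 (SE 0.032, limma adjusted p = 0.0983). After quantile normalization that of Cyp2e1 was -0.27 (SE 0.055, limma adjusted p = 0.0408), which passed. The lowest Cyp2e1 level of each group was again that of Con 1 (3445.21 FPKM) and Exe 5 (3212.48 FPKM). Cyp1a2 (-0.23), Cyp3a59 (-0.19), Cyp2a5 (-0.19), Cyp2d22 (-0.11) and Cyp2d10 (-0.098) were also below an unadjusted p of 0.05, with limma adjusted p-values between 0.159 and 0.225. Cyp1a2 fell to -0.13 without Exe 5 and Cyp3a59 to -0.11 without Con 1, and they stayed below the unadjusted p in 11 and 10 of the 12 fits that left out a mouse. Cyp2d22 was not below it after quantile normalization (-0.079, limma adjusted p = 0.327).

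Cyp3a13, a Cyp3a gene that is also active in the intestine, was the member that was higher with the score at the unadjusted p, with a coefficient of 0.21 (SE 0.055, limma adjusted p = 0.0986). It was at 37.3 and 43.32 FPKM in Con 4 and Con 5 and at 38.52 FPKM in Exe 4, and at 62.97 FPKM in Con 1 and 68.51 FPKM in Exe 5. The highest level, 70.32 FPKM, was that of Exe 1, whose score was 7.37. With the score as a covariate, its log2 fold change of Exe against Con went from 0.21 to 0.30 (SE 0.10, limma adjusted p = 0.77). In that fit 3 members were called at the unadjusted threshold in place of 2, and 599 of all genes in place of 636.

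**Figure D5:**
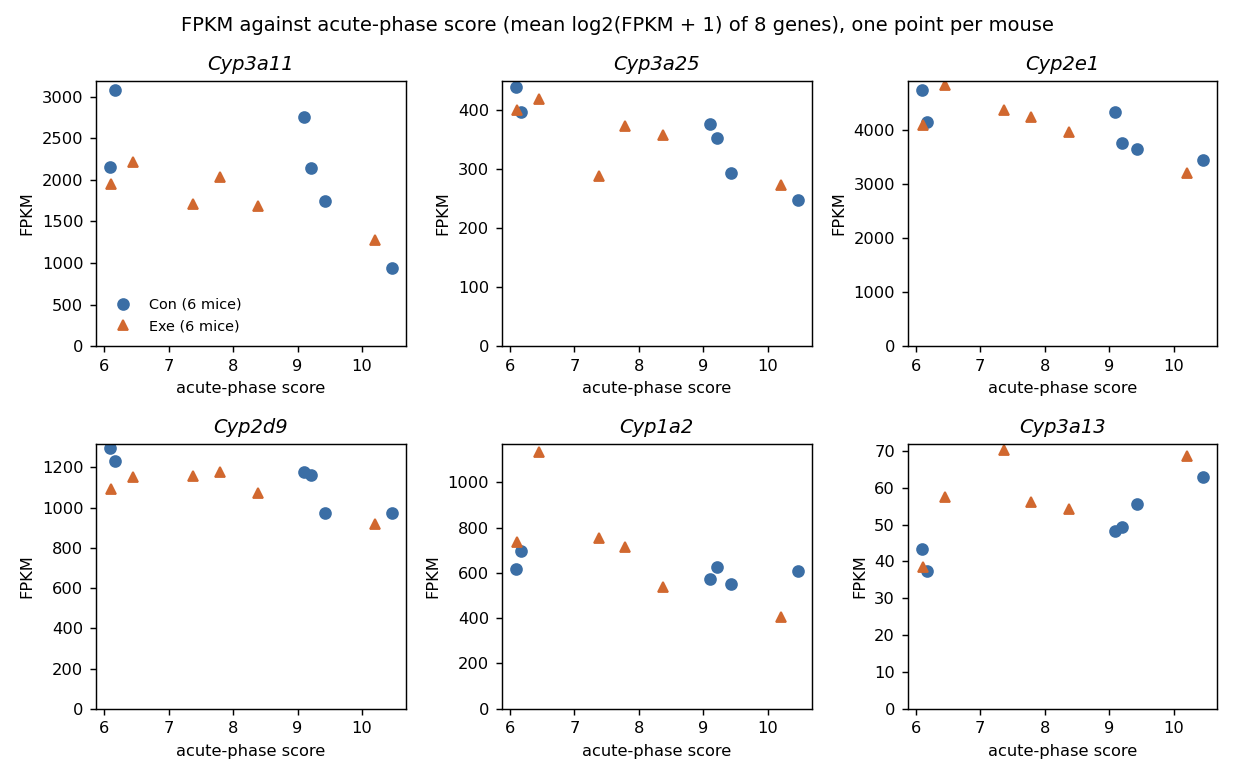
FPKM of 6 members against the acute-phase score of the mouse, with circles for the 6 Con and triangles for the 6 Exe mice. Cyp3a11, Cyp3a25, Cyp2e1 and Cyp2d9 are lowest in the mice with the highest scores (Con 1 and Exe 5), and Cyp3a13 is lowest in the 3 mice with the lowest scores.

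The mice at the top of the score carried much of this relation. Without Con 1 and Exe 5, 3 of the 22 members passed the unadjusted p of 0.05 against 7.59% of all genes: Cyp2a5 (-0.21), Cyp3a25 (-0.14) and Cyp3a13 (0.16). The coefficient of Cyp3a11 went from -0.32 to -0.12 and that of Cyp2e1 from -0.15 to -0.083, each per SD of the score over the mice in the fit. Cyp2u1 (-0.21) and Cyp2j9 (-0.19) then had larger coefficients than Cyp3a11, without passing. For Exe against Con the same omission gave 4 members, Cyp2a12, Cyp2u1, Cyp2d22 and Cyp2d26, against 7.26% of all genes. Other mouse-to-mouse values moved with the score as well, to be read beside the 9.89% of all genes lower and 6.51% higher with it at the unadjusted p and the 58.9% with a negative coefficient. Of the CAR and PXR targets outside the P450 genes, 6 of 6 had a negative coefficient, 4 of them below an unadjusted p of 0.05, with a coefficient of -0.28 for the carboxylesterase gene Ces2a. Negative coefficients were also found for 4 of 4 AHR targets, 7 of 8 electron donors and heme enzymes and 5 of 7 receptors and partners. They were found for 5 of 7 pericentral, 4 of 6 periportal and 3 of 6 male-biased genes. Below the unadjusted p were 0, 1, 1, 3, 1 and 2 genes in the same order, the periportal 1 being positive. Of the Kupffer cell markers, 5 of 5 had a positive coefficient, 4 of them below the unadjusted p, and they summed to 86.3 to 233 FPKM. Stellate cell and fibroblast markers had a positive coefficient in 5 of 5 cases, 2 below the unadjusted p, and bile duct markers in both of the 2 tested, 1 below it (Spp1). Hepatocyte markers had a negative one in 5 of 6 cases, 3 below the unadjusted p, and sinusoidal endothelium markers in 4 of 5, also 3 below it. The sum of the neutrophil markers, of which 2 of 5 reached a mean of 1 FPKM, was 31.9 FPKM in Con 1, 48.6 FPKM in Exe 5, 48.0 FPKM in Exe 3 and 8.71 to 19.7 FPKM in the others. Of these markers, 2 of 2 tested had a positive coefficient, 2 below the unadjusted p. After adjustment, neutrophil S100a9 (0.69, limma adjusted p = 0.0447) and endothelial Kdr (-0.22, limma adjusted p = 0.0275) passed, beside 0.742% of all genes. The part of these cell markers in the result was not tested.

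Across the 22 members, Exe 2 was the highest of the 12 mice for 9 genes and Exe 5 the lowest for 8. The same was not counted over all genes, so these counts have no background and may not be particular to the members. Exe 2 had a score of 6.45 and Exe 5 of 10.2. Con 4, Con 5 and Exe 4 had lower scores than Exe 2 and were highest for 3, 3 and 1 of the members. Con 6 and Exe 3 were neither the highest nor the lowest mouse for any member, beside scores of 9.21 and 8.38. The member sum followed the same order at its ends, with 14275 FPKM in Exe 2 and 9431 FPKM in Exe 5.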

How the data were processed

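Libraries from the livers of 12 mice were sequenced on the DNBseq platform. After removal of poor reads and alignment to GRCm39 by HISAT, the authors deposited a table of FPKM per mouse, with 2 decimals. The submitters' processing notes also name Bowtie2 and mm10. The tool that computed the FPKM, its annotation, the strand setting and any scaling between mice are not given in the sources used here, so reads shared between paralogs may have been split. Read counts were not used, the depth in reads is unknown, and DESeq, the study's tool, was not run. FPKM keep no counting error, so the spread between the mice is the only error given, and relative depth was estimated from 77 low genes (largest SE 0.00482).

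The scale was log2(FPKM + 1), on which changes of low genes are understated. Genes that reached 1 FPKM in 6 or more mice were fitted in R 4.3.3 with limma 3.58.1 (lmFit, eBayes with a trend, Benjamini-Hochberg over all genes), with the group alone or with the group and the acute-phase score. The study's thresholds (adjusted p 0.05, absolute log2 fold change above 1) were used, and an unadjusted p of 0.05 as a description. The fits were tested on simulated data. Single members were compared with exact two-sided permutation tests, and 5 pairs over 12 mice with 100000 permutations. A planned sixth pair, Cyp2b9 with Cyp2b13, was not analysed here. Other steps used scipy 1.17.1, pandas 2.3.3, numpy 2.4.6 and matplotlib 3.10.9 in Python 3.11.15. Shared windows were counted in GENCODE transcripts, which may differ from the annotation behind the FPKM.

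The members and lists were chosen with earlier results of these data known. Members with a mean of at least 1 FPKM were named with values. The others were named where a mouse reached 1 FPKM or where they are AHR, CAR or PXR targets, and otherwise by their range. The alternatives were quantile normalization, robust moderation, no filter or a stricter filter, the replicate block, a pseudocount of 0.1, each mouse left out, the score as a covariate, the score without the group term, and a score without Saa1, Saa2 and Lcn2. Fits without Con 1 and Exe 5 and without Con 6 and Exe 4 were added after seeing the data.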

Additional observations from a re-analysis of the deposited data

Results flagged for a closer look

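In groups of 6 mice, the highest or lowest mouse was singled out where its gap to the nearest mouse exceeded 0.625 of the range of the group, for the 28 members named with values. Of the 56 groups checked, 6 were singled out. The rule would give about 2.8 for independent, normally distributed groups chosen without regard to their values, which these are not. Cyp2s1, with a mean of 0.49 FPKM, was named because a mouse reached 1 FPKM, and the members share the same mice. The 6 are therefore not compared with chance.

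Exe 2 was highest for Cyp1a1, at 4.12 FPKM, with the next Exe mouse at 1.4 FPKM. Con 6 was highest for Cyp2b10, at 2.14 FPKM, with the next Con mouse at 0.6 FPKM. Con 1 was highest for Cyp2d34, at 1.89 FPKM, with the next Con mouse at 1.27 FPKM. Exe 1 was lowest for Cyp2j9, at 2.78 FPKM, with the next Exe mouse at 6.1 FPKM. For Cyp2s1, Con 6 was highest in Con at 3.82 FPKM, with the next mouse at 0.22 FPKM, and Exe 4 was highest in Exe at 1.13 FPKM, with the next mouse at 0.12 FPKM. Con 6 thus appears for both Cyp2b10 and Cyp2s1.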

How the results depend on the processing

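No member passed the adjusted threshold for Exe against Con in any setting run (lowest adjusted limma p 0.507). Of 44 member results (a fold change and a coefficient each), 29 kept their direction throughout, while 10 fold changes and 5 coefficients turned in some setting, and the cause was not tested. The median fold change of the members (log2) was -0.0020 with the score as a covariate and -0.0030 to 0.064 with each mouse left out. Fold changes (log2) that turned were, after quantile normalization, Cyp2f2 -0.0098, Cyp3a25 -0.052 and Cyp2j5 -0.013, with the score as a covariate, Cyp2f2 -0.0078, Cyp3a25 -0.084 and Cyp2e1 -0.028, without Con 1 and Exe 5, Cyp2d12 0.078, Cyp2d40 0.078, Cyp3a25 -0.016 and Cyp2a5 0.032, and without Con 6 and Exe 4, Cyp3a25 -0.023. Coefficients that turned were Cyp2d34 after quantile normalization (-0.014), without Con 1 and Exe 5 (-0.053) and without the group term (-0.0071), and Cyp2d12 without Con 1 and Exe 5 (0.013).

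The number of members called at the unadjusted p for Exe against Con was 1 of 36 with no filter, beside 898 of 16804 genes. Without Con 1 and Exe 5 it was 4 of 22, beside 744 of 10241 genes (7.26%). Leaving out each mouse in turn it ranged from 1 to 4. It was 1 without Con 2, Con 3, Exe 1, Exe 3 or Exe 6, beside 590, 504, 567, 651 and 517 genes. It was 4 without Con 1, Exe 4 or Exe 5, beside 538, 730 and 910 genes. Over all genes the count ranged from 418 (without Exe 2, with 2 members) to 910 (without Exe 5). For the score, all genes at the adjusted p numbered 23 with no filter, 12 without Con 1 and Exe 5, 39 with the shorter score and 17 to 90 with each mouse left out (17 without Con 1). Members at the unadjusted p numbered 3 without Con 1 and Exe 5 and 8 to 11 with each mouse left out. Of all genes, 7.59% were at that p without Con 1 and Exe 5, and they were not counted with each mouse left out. Members at the adjusted p numbered 0 to 1 with each mouse left out, Cyp3a25 passing without Con 3 or without Exe 1, and 1 after quantile normalization (Cyp2e1, adjusted limma p 0.0408).

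With each mouse left out, the fold changes that turned ranged from -0.10 to 0.045 for Cyp2d12, -0.11 to 0.026 for Cyp2d40, -0.091 to 0.0024 for Cyp2d9, -0.014 to 0.10 for Cyp2e1, -0.022 to 0.059 for Cyp2f2, -0.0097 to 0.069 for Cyp2j5, -0.0028 to 0.062 for Cyp2j6, -0.23 to 0.0088 for Cyp2j9 and -0.085 to 0.080 for Cyp3a25. The coefficients ranged from -0.10 to 0.043 for Cyp2d12, -0.057 to 0.038 for Cyp2d34, -0.078 to 0.030 for Cyp2d40 and -0.068 to 0.011 for Cyp2r1. The correlations ranged from 0.616 to 0.896 for Cyp1a1 with Cyp1a2, 0.588 to 0.828 for Cyp1a2 with Cyp2e1 and -0.017 to 0.26 for Cyp2b10 with Cyp3a11.

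The replicate numbers are not stated to pair the mice. Deviations of same-numbered mice correlated between -0.478 and 0.165, and 2 of 12 mice correlated best with their own number. With the replicate block, 3 members and 567 genes were called at the unadjusted p for Exe against Con. For the score, 13 members were called at that p and the coefficient of Cyp2u1 became 0.026. All genes at that p were not counted for the score in this fit, so the 13 have no background.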
